A study of Mus musculus with 6 samples.

Results

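Transcripts of 38 mouse genes of glycolysis and the hypoxia response were examined in embryonic hindbrain tissue, in Hoxb1 mutant against wild-type embryos. The members are every probe set on the Affymetrix mouse 430A array whose single annotated gene is 1 of these 38 genes. This gave 70 probe sets for 35 genes. Of the members, 23 of the 25 glycolysis genes and 12 of the 13 hypoxia response genes had a probe set. Gpi1, Eno1 and Bnip3l had none that names them alone and are not analysed here, and Gapdh had only array control probe sets, which were not tested. The tests therefore cover 34 genes with 67 probe sets, of 12393 genes and 22626 probe sets tested in all.

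The study asks which transcripts depend on Hoxb1, the Hox gene that sets the identity of rhombomere 4, the hindbrain segment from which facial motor neurons arise. Each group held 3 pools of dissected segments from embryos at E10.5, and each pool was hybridised to 1 array. The submitters call the pools independent biological replicates and describe the tissue as mainly rhombomere 4 with adjoining branchial arch. The labels name the groups Hoxb1 mutant and wild type, and do not give the allele, its zygosity, the strain or the number of embryos per pool. In such bulk tissue, fewer cells of a type and less RNA per cell cannot be told apart.

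Glycolysis turns glucose into pyruvate in the cytosol, and lactate dehydrogenase can reduce that pyruvate to lactate while it regenerates the NAD+ that the pathway needs. Cells low in oxygen stabilise the transcription factor subunit HIF-1α, which pairs with ARNT and binds the hypoxia response element, a short DNA motif near many glycolytic and stress genes. When oxygen is plentiful, prolyl hydroxylases of the Egln family mark HIF-1α for destruction. Neural tissue of mid-gestation embryos is known for strong use of glycolysis before its blood supply matures.

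No member passed the test. In limma, 0 of the 67 member probe sets had an adjusted p under 0.05, against 0% of all 22626 probe sets tested, and the lowest adjusted p of a member was 0.623. Hoxb1 itself, with a log2 difference of -2.78 (SE 0.24), did not pass either. Its limma adjusted p of 0.0695 was the lowest of all probe sets, so missing the threshold does not show that a member is unchanged. At an unadjusted p under 0.05 there were 2 member probe sets, of Eno2 and Ndrg1, against 5.76% of all probe sets. Both were lower in mutants and 0 higher, against 3.88% lower and 1.88% higher among all probe sets. Taking the brightest probe set of each gene, 23 of the 34 genes had a higher mean in mutants, or 67.6%, against 45.5% of all genes and 57% of the 3099 brightest genes. The median log2 difference, mutant minus wild type, was 0.042 for the 22 glycolysis genes and 0.037 for the 12 hypoxia response genes, beside -0.02 for all genes and 0.02 for the 3099 brightest, in which 18 of the 34 members lie. Of these differences, 17 of the 34 had a 95% interval that stayed within 0.5 log2 units of 0, a factor of 1.41, as did 45.2% of all genes and 75% of the 3099 brightest. Without each array in turn, 19 to 25 members had a higher mean, the 19 without wild-type replicate 1.

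All intensities below are linear, as deposited. Differences were taken after log2(intensity + 16), a scale that shrinks the change of dim probe sets. The background level used here is 61.5, the 95th percentile of control probe sets for bacterial transcripts, whose median was 12.7. Of the 67 member probe sets, 58 lay above it on all 6 arrays and 5 on none. A suffix of s or x, which marks probes shared with other transcripts, is carried by 14 of them, among these the brightest sets of Slc2a3, Aldoa, Tpi1, Pgk1 and Ndrg1, whose values are uncertain to that degree. Array medians ran from 187 to 214. Control probe sets for 18S ribosomal RNA had mean log2 signals of 12.1 and 11.3 on wild-type replicates 2 and 3, and of 6.36 to 7.03 on the other arrays. Hoxb1 itself gave 341, 378 and 588 on the wild-type arrays and from 35.3 to 60.8 on the mutant arrays, the latter all under background. No source used here says where its probes lie relative to the mutation. The neural tissue markers Sox2 and Nes and the arch mesenchyme markers Prrx1 and Twist1 were above background on all 6 arrays.

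**Figure D1:**
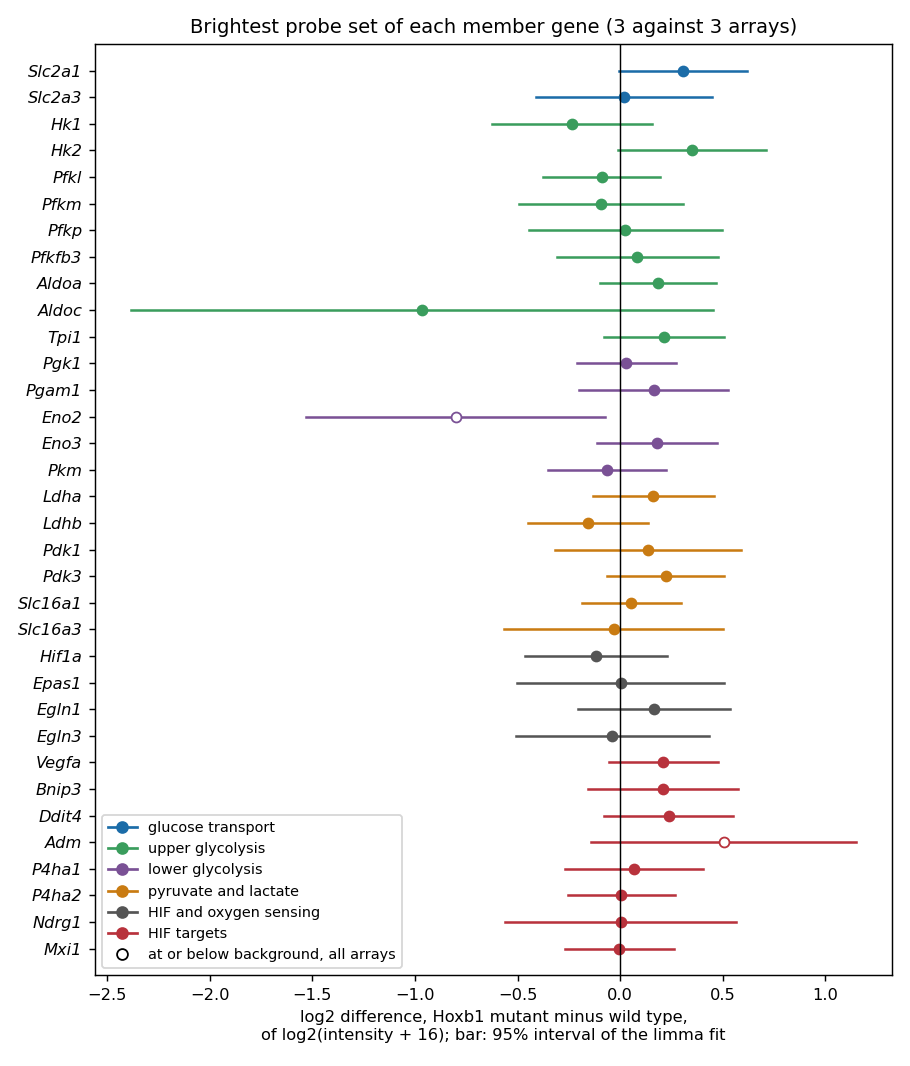
Log2 difference (mutant minus wild type) of the brightest probe set of each of the 34 tested genes, by role, with the 95% interval of the limma fit; open points mark probe sets below background on all arrays. Most points lie within 0.4 of 0, the widest intervals are those of Aldoc, Eno2 and Adm, and Eno2 alone has an interval that leaves out 0.

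Promoter sequence gives a view of the members that the arrays did not use. RefSeq promoter windows of assembly GRCm38.p6, from 250 bases before to 50 after the annotated start, were found for 34 of the 38 members, in 50 windows. They were searched on both strands for the core of the hypoxia response element, ACGTG or GCGTG, which overlaps the E-box CACGTG. A match stood in 40 of the 50 windows, or 80%. It stood in at least 1 window of 31 genes, a count that favours genes with several windows. Windows with a match made up 43.8% of all 32851 windows and 56.6% of the windows of genes on the array. The core holds a CG, and the members' windows were rich in it, with a median of 20.5 CG per window against 7 over all windows. Among all windows with at least that many CG, 74% held a match. These are richer in CG than the members' windows, with a median of 29. With only the first listed window of each gene, 26 of 34 members held a match, or 76.5%. That share was 57.6% for genes on the array and 74% for genes with CG-rich windows, close to the members. ACGTG stood in 56% of the members' windows and 29% of all CG-rich windows, while GCGTG stood in 56% and 64%. The windows are not independent, since Aldoa, Eno1 and Pfkm have overlapping windows in which the same match is counted again. Members include genes listed as HIF targets, so these shares are not independent of how the members were chosen, and they were not tested. A match is a run of letters, and neither binding nor use of these promoters was measured.

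The 6 windows printed here, without the transcribed bases, are those of Slc2a1, Hk2, Pdk3 and Slc16a1, whose mutant arrays all lay above wild type, and of Ldha and Bnip3, textbook HIF targets whose groups overlapped. Each is read 5′ to 3′ along the gene and ends just before the annotated start, and where a gene had several windows the one with the most matches is shown. Capitals mark the core on either strand, where CACGT and CACGC are the reverse complements.
Slc2a1, chr4:119108495-119108744, plus strand: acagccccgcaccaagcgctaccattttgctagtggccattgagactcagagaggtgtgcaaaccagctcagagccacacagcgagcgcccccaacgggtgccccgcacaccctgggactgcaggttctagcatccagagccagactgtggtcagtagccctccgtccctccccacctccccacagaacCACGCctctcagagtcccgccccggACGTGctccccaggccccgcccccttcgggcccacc
Hk2, chr6:82774455-82774704, minus strand: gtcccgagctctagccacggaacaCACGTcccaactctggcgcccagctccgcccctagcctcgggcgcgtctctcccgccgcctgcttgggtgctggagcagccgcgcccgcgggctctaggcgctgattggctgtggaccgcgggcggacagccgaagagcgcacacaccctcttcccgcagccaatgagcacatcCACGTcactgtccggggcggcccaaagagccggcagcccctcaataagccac
Pdk3, chrX:93832151-93832400, minus strand: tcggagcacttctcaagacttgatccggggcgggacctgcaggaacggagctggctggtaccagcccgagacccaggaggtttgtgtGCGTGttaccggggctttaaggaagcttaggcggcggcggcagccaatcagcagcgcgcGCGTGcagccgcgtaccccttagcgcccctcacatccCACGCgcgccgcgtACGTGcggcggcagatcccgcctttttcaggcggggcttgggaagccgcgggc
Slc16a1, chr3:104638414-104638663, plus strand: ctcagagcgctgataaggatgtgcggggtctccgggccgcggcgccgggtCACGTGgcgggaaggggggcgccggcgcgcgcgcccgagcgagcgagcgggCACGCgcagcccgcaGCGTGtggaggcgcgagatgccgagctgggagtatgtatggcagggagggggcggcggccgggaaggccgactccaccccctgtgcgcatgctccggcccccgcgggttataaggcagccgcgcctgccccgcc
Ldha, chr7:46845554-46845803, plus strand: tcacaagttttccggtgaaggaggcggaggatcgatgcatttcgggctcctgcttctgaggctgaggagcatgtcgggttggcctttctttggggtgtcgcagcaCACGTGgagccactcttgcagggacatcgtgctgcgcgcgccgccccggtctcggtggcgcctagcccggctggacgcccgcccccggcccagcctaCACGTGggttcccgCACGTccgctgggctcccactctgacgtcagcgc
Bnip3, chr7:138909507-138909756, minus strand: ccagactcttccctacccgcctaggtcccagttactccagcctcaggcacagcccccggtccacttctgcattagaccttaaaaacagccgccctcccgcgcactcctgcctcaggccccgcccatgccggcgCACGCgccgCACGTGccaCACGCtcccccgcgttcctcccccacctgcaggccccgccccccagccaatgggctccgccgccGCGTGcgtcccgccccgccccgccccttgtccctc
Slc2a1 and Hk2 hold 2 matches each before the start. Pdk3 and Slc16a1 hold 4 each, and Ldha and Bnip3 hold 5 each, counting both strands of a CACGTG separately. In Ldha all 5 are ACGTG, and CACGTG occurs 2 times. The window of Tpi1, whose mutant arrays also lay above wild type, held 0, which says only that these letters are not in it.

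Glucose enters these cells through transporters of the Slc2a family. Slc2a1, which encodes GLUT1, the transporter of most embryonic and barrier tissues, had its brightest probe set at 1699.6, 1452 and 1334 on the wild-type arrays and 1891, 1735 and 1910.2 on the mutant arrays. Every mutant array lay above every wild-type array, with the wild-type arrays spread more widely. The log2 difference was 0.31 (SE 0.13), with limma adjusted p = 0.833. Its other probe sets gave smaller log2 differences of 0.10 (SE 0.11) and 0.09 (SE 0.15), and there the groups overlapped. Slc2a3, which encodes the high-affinity transporter GLUT3 of neurons, gave 2148, 2197 and 1977 on the wild-type arrays and 1647, 2518 and 2341 on the mutant arrays. Mutant replicate 1 was the lowest of the 6 arrays and mutant replicate 2 the highest, and the log2 difference was 0.02 (SE 0.18). Of its 3 dimmer probe sets, 2 had a higher and 1 a lower mean in mutants, from -0.12 to 0.33.

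Hexokinase traps glucose in the cell by phosphorylating it. Hk2, the form that insulin and hypoxia are known to induce, gave 821, 788 and 709.5 on the wild-type arrays and 1189.7, 871 and 928 on the mutant arrays. All mutant arrays exceeded all wild-type arrays, and mutant replicate 1 stood above the other mutant arrays. The log2 difference was 0.35 (SE 0.15), the largest positive one among the brightest probe sets that were above background, with limma adjusted p = 0.833. Hk1, the housekeeping hexokinase, went the other way in mean, at 512, 469 and 641 on the wild-type arrays and 401, 443 and 524 on the mutant arrays, with overlapping groups. Its log2 difference was -0.23 (SE 0.16), and its second probe set gave -0.12 (SE 0.14). The difference between these 2 hexokinases was not tested.

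Phosphofructokinase commits the sugar to glycolysis, and its 3 subunit genes were measured close to wild type. The liver-type subunit gene Pfkl, the brightest of these probe sets, had 2792 ± 202 on wild-type arrays against 2621 ± 199 on mutant arrays (SD, n = 3), a log2 difference of -0.09 (SE 0.12). The muscle-type Pfkm gave -0.09 (SE 0.17) and the platelet-type Pfkp 0.03 (SE 0.20). Pfkfb3, which makes the allosteric activator fructose 2,6-bisphosphate, gave 0.08 (SE 0.16). In each of the 4 genes the groups overlapped, in every probe set. The 95% intervals of the brightest probe sets, the widest of them -0.45 to 0.50 for Pfkp, leave room for modest changes in either direction.

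Aldolase splits the sugar and triosephosphate isomerase interconverts the products. Aldoa, the main aldolase of embryonic tissue, gave 6750.3, 6319 and 6037 on the wild-type arrays and 7291, 6619 and 7814 on the mutant arrays in its brightest probe set, a log2 difference of 0.18 (SE 0.12). Its 3 other probe sets lay between -0.05 and 0.05, and all 4 carry the x suffix. Tpi1 gave 5405, 5448 and 5029 on the wild-type arrays and 5539, 6158 and 6808 on the mutant arrays, with no overlap, mutant replicate 3 highest and wild-type replicate 3 lowest. Its log2 difference was 0.22 (SE 0.12), and its 2 other probe sets gave 0.10 and 0.20 with overlapping groups. Aldoc, the aldolase of brain, was dim and uneven, at 156, 169 and 174 on the wild-type arrays and 206, 84.9 and 20.2 on the mutant arrays. The wild-type arrays were alike, while the mutant arrays ran from above all of them to below background, so that the log2 difference of -0.97 (SE 0.59) has a 95% interval of -2.38 to 0.45.

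The steps after the split yield ATP, and most of their genes were measured close to wild type. Gapdh, the dehydrogenase that feeds the ATP-forming steps, was measured by control probe sets at its 5′ end, middle and 3′ end. The 3′ set gave 11592, 11215 and 12076 on the wild-type arrays and 11858, 11244 and 11717 on the mutant arrays, and the 3 sets had log2 differences of 0.03, -0.02 and -0.00. Pgk1, phosphoglycerate kinase, gave 10996, 10739 and 11193 on the wild-type arrays and 10945, 11518 and 11149.8 on the mutant arrays, a log2 difference of 0.03 (SE 0.10) with a 95% interval of -0.21 to 0.27. Its dimmest probe set gave 963, 998 and 883 on the wild-type arrays and 1069.7, 1152 and 1045 on the mutant arrays, without overlap. Its middle probe set had a log2 difference of 0.11 (SE 0.13), so all 3 sets lay on the same side at different sizes.

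Pgam1, phosphoglycerate mutase, gave 3832, 3313 and 4006 on the wild-type arrays and 3533, 4265 and 4742 on the mutant arrays, with mutant replicates 2 and 3 on top and the groups overlapping. Pkm, the pyruvate kinase gene of embryonic and most adult tissue, gave 6786, 6936 and 7175 on the wild-type arrays and 5936, 7196 and 6929 on the mutant arrays. Mutant replicate 1 was the lowest array and mutant replicate 2 the highest, and the log2 difference was -0.06 (SE 0.12). Eno3, the muscle-type enolase, had a log2 difference of 0.18 (SE 0.12). Eno2, the neuronal enolase, gave 55.0, 57.6 and 35.4 on the wild-type arrays and 31.7, 7.27 and 29.7 on the mutant arrays, all at or under the background level, so that no fold is given. Its groups did not overlap, with the mutants lower, and it was 1 of the 2 member probe sets with an unadjusted p under 0.05.

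At the end of the pathway, Ldha, the lactate dehydrogenase subunit favoured in low oxygen with 2 CACGTG in its promoter window, gave 9116, 9487 and 7858 on the wild-type arrays and 9304, 9769 and 10469.7 on the mutant arrays. Wild-type replicate 3 was lowest and mutant replicate 3 highest, with overlap through wild-type replicate 2, and the log2 difference was 0.16 (SE 0.12). Ldhb, the subunit favoured in oxidative tissue, had a lower mean in mutants in all 4 of its probe sets, with 2633 ± 282 on wild-type arrays against 2355 ± 69.5 on mutant arrays (SD, n = 3) in the brightest. The log2 differences of those 4 sets ran from -0.34 to -0.07, and the groups overlapped in each. The unequal change of Ldha and Ldhb was not tested.

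The pyruvate dehydrogenase kinases hold pyruvate back from mitochondria, and both members among them, Pdk1 and Pdk3, had higher means in mutants, unlike Pdk2 and Pdk4, which are given with the further pathway genes. Pdk3 gave 629.5, 639.8 and 581 on the wild-type arrays and 650.0, 743 and 778 on the mutant arrays, without overlap, and a log2 difference of 0.22 (SE 0.12) with limma adjusted p = 0.833. Pdk1, a well-known HIF target, gave 439, 451 and 355 on the wild-type arrays and 433, 561 and 614 on the mutant arrays in its dimmer probe set, where mutant replicate 1 lay among the wild-type arrays. That set had a log2 difference of 0.35 (SE 0.17), and the brighter one 0.14 (SE 0.19), where wild-type replicate 2 was the highest of all arrays. The lactate carrier genes had means close to wild type. Slc16a1 (MCT1) gave 867, 887 and 891 on the wild-type arrays and 944, 909 and 899 on the mutant arrays, a narrow gap without overlap and a log2 difference of 0.06 (SE 0.10). Slc16a3 (MCT4) gave -0.03 (SE 0.22) with overlapping groups.

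**Figure D2:**
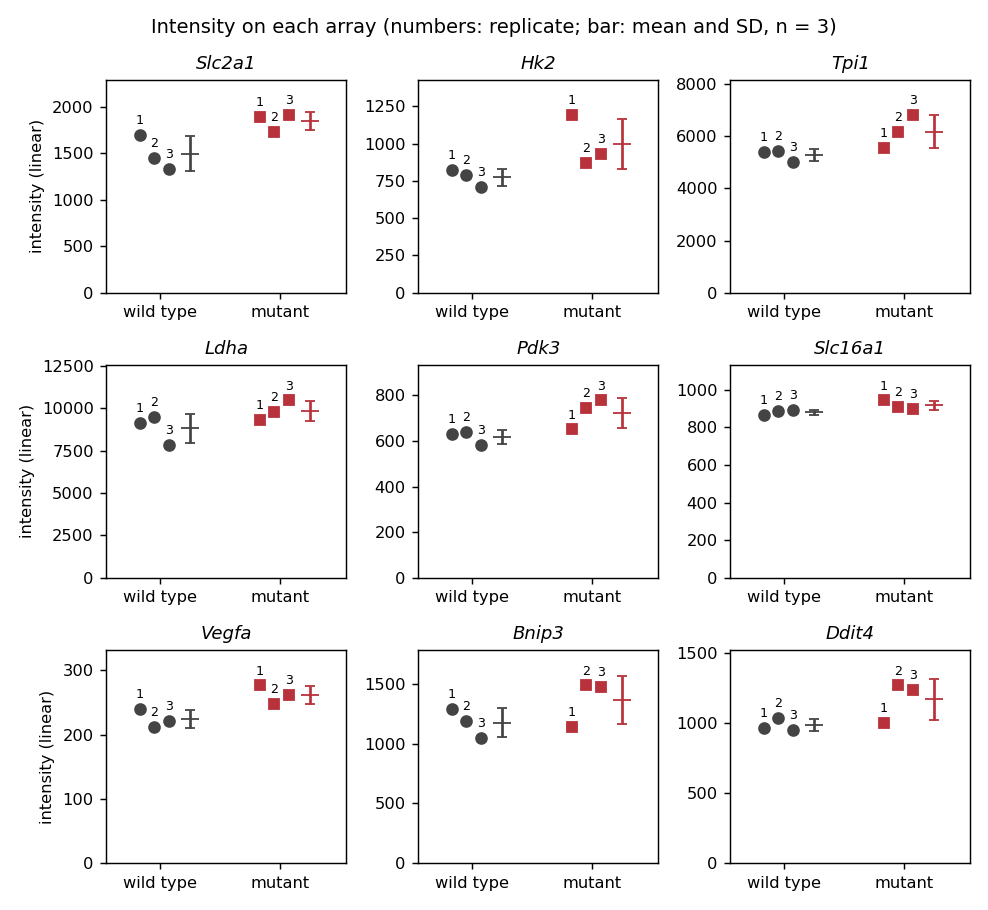
Linear intensity of the brightest probe set of 9 members on each array, with replicate numbers, and mean and SD (n = 3) at the right of each group; axes start at 0. In Slc2a1, Hk2, Tpi1, Pdk3, Slc16a1 and Vegfa the lowest mutant array lies above the highest wild-type array, whereas Ldha, Bnip3 and Ddit4 overlap.

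Among the 22 glycolysis genes, 14 had a higher and 8 a lower mean in mutants. In 5 of them (Slc2a1, Hk2, Tpi1, Pdk3 and Slc16a1) every mutant array lay above every wild-type array, against 5% of all genes and 9.1% of the 3099 brightest. In 1, Eno2, every mutant array lay below, against 7.33% of all genes. Counted over probe sets, 6 of 43 were higher without overlap and 1 lower, against 4.88% and 7.08% of all probe sets. The gene count depends on the brightest probe set: Slc2a1 and Tpi1 each have 2 further probe sets, and in all 4 of those the groups overlap. With quantile normalization 4 genes were higher without overlap, Slc2a1 no longer among them. With arrays centred on their medians 4 were, with Aldoa in and Tpi1 and Pdk3 out, and all genes then split 6.58% higher to 4.87% lower.

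The regulators of the hypoxia response were measured close to wild type in mean. Hif1a, which encodes the oxygen-sensitive HIF-1α, gave 2261, 2171 and 2163 on the wild-type arrays and 2362, 2059 and 1706 on the mutant arrays in its brightest probe set. Mutant replicate 3 was the lowest and mutant replicate 1 the highest of the 6 arrays, and the log2 difference was -0.12 (SE 0.14). Its 3 other probe sets ran from -0.16 to 0.29. Epas1, which encodes HIF-2α and is best known from endothelium, was dim at 101 ± 13.3 on wild-type arrays against 104 ± 30.0 on mutant arrays (SD, n = 3), a log2 difference of 0.00 (SE 0.21). The prolyl hydroxylase gene Egln1 gave 597, 651 and 718 on the wild-type arrays and 851, 614 and 757 on the mutant arrays, and its 2 probe sets had log2 differences of 0.16 and 0.15. Egln3, a hydroxylase that HIF itself induces, gave -0.04 (SE 0.20) in the brighter set and -0.32 (SE 0.20) in the dimmer. In all 9 probe sets of these 4 genes the groups overlapped. Protein levels, at which HIF-1α is regulated, were not measured.

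Of the 8 measured HIF targets outside glycolysis, 7 had a higher mean in mutants, or 87.5%, against 45.5% of all genes. The median log2 difference of the 8 was 0.14, and 0 passed in limma. Among the 7, Ndrg1 and P4ha2 lay at 0.00 and 0.01, and Adm was under background on all arrays. Ndrg1, P4ha1 and P4ha2 changed sign in 5, 3 and 3 fits with other processing. Vegfa, the vascular growth factor, gave 240.4, 212 and 221 on the wild-type arrays and 277, 248 and 261 on the mutant arrays, without overlap. Its log2 difference was 0.21 (SE 0.11) with limma adjusted p = 0.833, and its other probe set gave 0.04 (SE 0.13) with overlap. Bnip3, which drives removal of mitochondria, gave 1288, 1189.9 and 1047 on the wild-type arrays and 1138, 1488 and 1473 on the mutant arrays. Mutant replicates 2 and 3 were above all wild-type arrays and mutant replicate 1 below 2 of them, for a log2 difference of 0.21 (SE 0.15). Ddit4 (REDD1), an inhibitor of mTORC1, gave 965, 1033 and 952 on the wild-type arrays and 1001, 1267 and 1233 on the mutant arrays, again with mutant replicate 1 inside the wild-type range. Its log2 difference was 0.24 (SE 0.13), with a 95% interval of -0.08 to 0.55.

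The collagen prolyl hydroxylase genes P4ha1 and P4ha2 and the Myc antagonist Mxi1 stayed near wild type in mean. P4ha1 gave 0.07 (SE 0.14), P4ha2 0.01 (SE 0.11) and Mxi1 -0.00 (SE 0.11), the brightest probe set in each case. The interval of P4ha2, -0.25 to 0.27, was among the narrower ones. Adm, which encodes the vasodilator adrenomedullin, was under the background level on all arrays, with a highest value of 33.2, so no fold is given although its groups did not overlap. Vegfa and Adm were thus the 2 of 12 hypoxia response genes that were higher without overlap, against 5% of all genes. None was lower without overlap, against 7.33%. Only Vegfa of the 2 was above background, so the order of the arrays in Adm carries little information. Of the 24 probe sets of the 12 genes, 2 were higher without overlap and 1, of Ndrg1, lower, against 4.88% and 7.08% of all probe sets. The gene count of 2, Adm included, was the same with quantile normalization and with centred arrays.

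Ndrg1, a stress-responsive gene of differentiating cells, had 5 probe sets, of which 2 were under background on all arrays and are not read further. The brightest gave 113, 202 and 112 on the wild-type arrays and 163, 122 and 130.4 on the mutant arrays, a log2 difference of 0.00 (SE 0.24). A dimmer set, the third by brightness, gave 44.3, 62.9 and 104 on the wild-type arrays and 21.0, 19.6 and 16.9 on the mutant arrays, lower in every mutant array. All 3 mutant arrays and 1 wild-type array there are under background, so no fold is given. This set had the smallest p of all member probe sets, a fitted log2 difference of -1.24 (SE 0.25) with limma adjusted p = 0.623. The second by brightness gave 0.06 (SE 0.18) with overlapping groups.

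**Figure D3:**
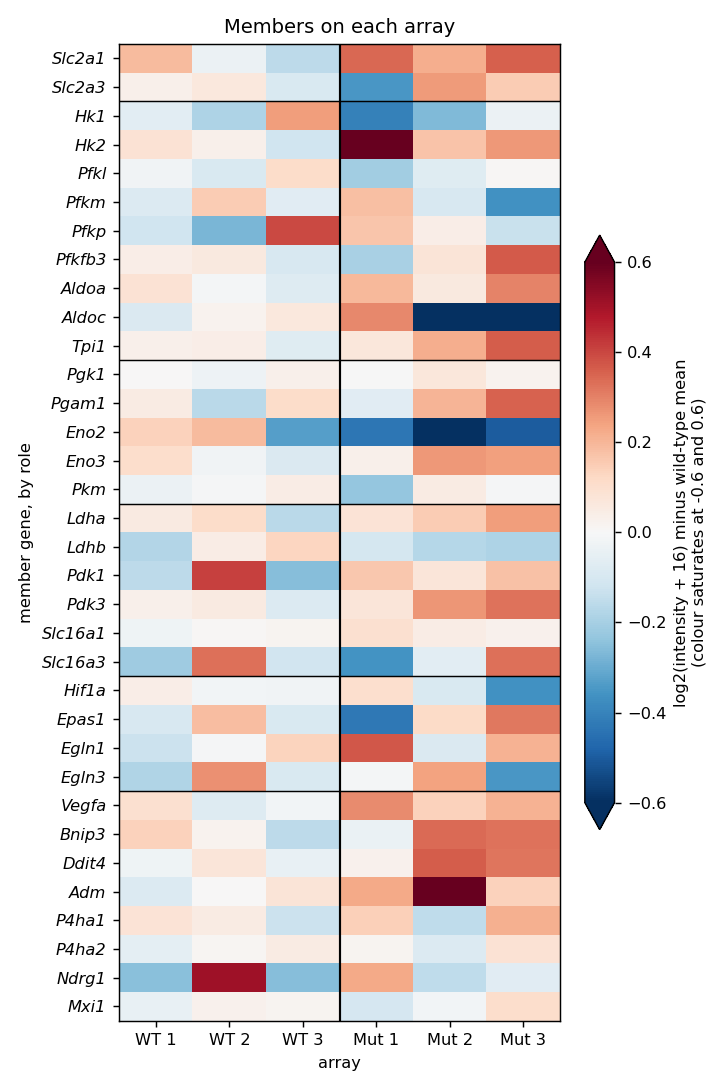
Deviation of log2(intensity + 16) from the wild-type mean, for the brightest probe set of the 34 genes (rows, by role) on the 6 arrays (columns); colour saturates at 0.6 either way. Warm colours gather in mutant replicate 3, which is the highest array for 12 genes, and wild-type replicate 3 is the lowest for 11.

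The members did not vary evenly over the arrays. Mutant replicate 3 was the highest array for 12 of the 34 genes, or 35.3%, against 13.6% of all genes and 22.8% of the 3099 brightest. Wild-type replicate 3 was the lowest for 11, or 32.4%, against 20.1% and 25.9%. The median log2 deviation of the glycolysis genes from their wild-type mean was 0.02, 0.03 and -0.07 on the wild-type arrays and 0.05, 0.06 and 0.16 on the mutant arrays. That of the hypoxia response genes was -0.05, 0.03 and -0.03, then 0.06, 0.05 and 0.17. In both lists the 3 mutant arrays lay above the 3 wild-type arrays, with mutant replicates 1 and 2 close to wild-type replicate 2. Over all genes the same medians ran from -0.05 to 0.03, with mutant replicates 2 and 3 lowest. Over the 3099 brightest genes they ran from -0.01 to 0.04, with mutant replicates 2 and 3 highest, as in the glycolysis genes.

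Primitive red cells circulate in these embryos, and their markers shared the lowest and the highest array with the glycolysis genes. The summed intensity of 7 of the 11 listed erythroid markers that were measured was 38932, 36424 and 33615 on the wild-type arrays and 37134, 38341 and 41113 on the mutant arrays. As with the glycolysis genes, wild-type replicate 3 was the lowest and mutant replicate 3 the highest, but wild-type replicate 1 was second highest and the groups overlapped. Most of each sum came from the globin genes Hbb-y, Hbb-bh1 and Hba-x. Of the 7, 5 had a higher mean in mutants and 0 passed in limma, and none was under background on all arrays. The embryonic globin gene Hbb-bh1 gave 11835, 10522 and 9970.2, then 11198, 12269 and 13337. Hbb-y, another embryonic globin gene, gave 13817, 12334 and 13056, then 12679.9, 12771 and 13474, with wild-type replicate 1 highest. Its log2 difference was -0.01, and that of Hba-a1, an adult-type globin gene near background, was -0.16. Their part in the members' differences was not tested.

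Summed markers of other tissues in the dissection did not overlap between the groups in some lists. The summed markers of neural tube and rhombomere 4 ran from 7116 to 8146 in wild type and from 5907 to 6357 in mutants, with 8 of 9 lower in mean, Hoxb1 among them. Those of arch mesenchyme and cranial crest ran from 9812 to 11014 and from 8704 to 9529, with 7 of 8 lower. A large part of each arch sum was Col3a1, with means of 5045 in wild type and 4743 in mutants. Dlx5 was 1391 on wild-type replicate 3, the highest arch sum, against 601 and 620 on the other wild-type arrays. Neuron markers ran from 8346 to 9737 and from 6788 to 8861, with overlap of the sums and 6 of 6 lower. Over all genes, 6757 of 12393 had a lower mean in mutants. The neural tube sum and the neuron sum were both highest on wild-type replicate 3 and lowest on mutant replicate 3, the reverse of the glycolysis genes and the erythroid sum. Sums for endothelium (2115 to 2418 and 2121 to 2378), macrophages (1204 to 1291 and 870.4 to 1391) and surface epithelium (2685 to 3617 and 2781 to 3553) also overlapped. None of these markers passed in limma, none was under background on all arrays, and their part in the members' differences was not tested.

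**Figure D4:**
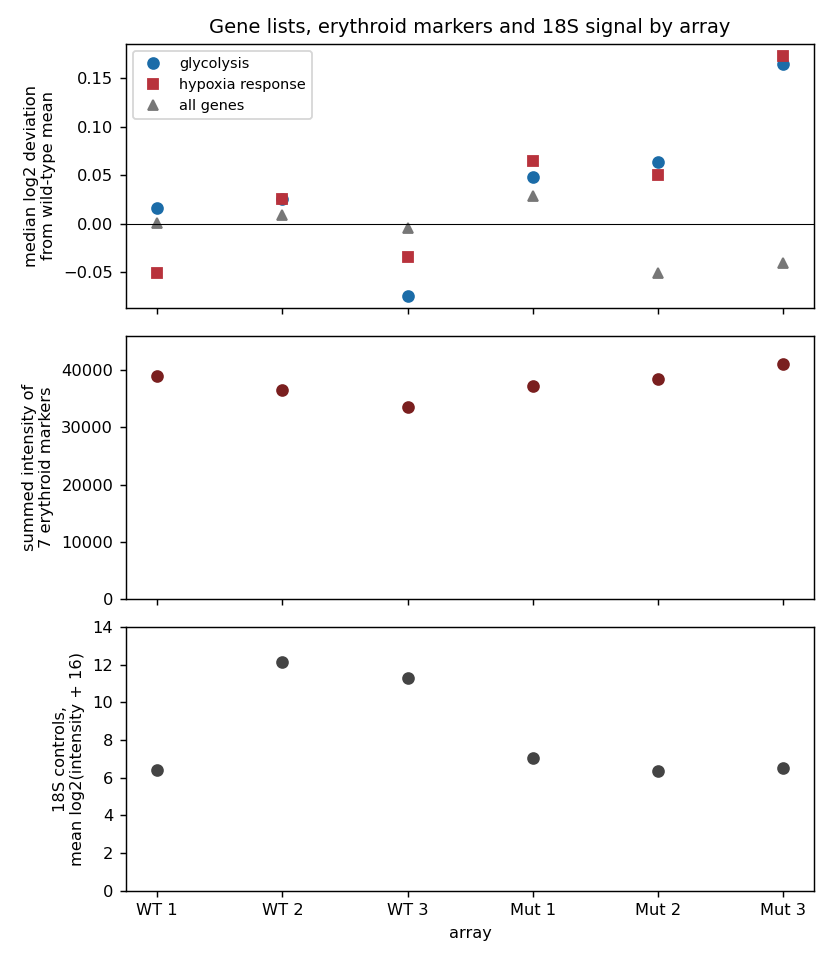
Top, median log2 deviation from the wild-type mean of the glycolysis genes, the hypoxia response genes and all genes on each array; middle, summed intensity of 7 erythroid markers; bottom, mean log2 signal of the 18S control probe sets. Wild-type replicate 3 is lowest and mutant replicate 3 highest for both the glycolysis genes and the erythroid markers, and the 18S signal is high on wild-type replicates 2 and 3 only.

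The 18S signal separates 2 wild-type arrays from the rest, so the members were also fitted with it as a covariate. The median log2 difference was then 0.07 for glycolysis genes and 0.10 for hypoxia response genes, with 27 of 34 members higher in mean and 0 past the threshold. Single members moved both ways: Slc2a1 went from 0.31 to 0.15 and Vegfa from 0.21 to 0.13, while Pdk1 went from 0.14 to 0.33. With the signal high on wild-type replicates 2 and 3 only, the group difference in this fit rests mainly on wild-type replicate 1. Without wild-type replicates 2 and 3, which leaves 1 wild-type array that is assumed to vary like the mutants, the medians were 0.08 and 0.11, with 25 of 34 higher.

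Other genes of the same pathways, from the wider lists, had means on both sides in near equal numbers. Of 33 further genes of glycolysis and pyruvate use, 25 were measured, 11 with a higher and 14 with a lower mean in mutants, a median of -0.03, and 0 passed in limma. Pdk2, a pyruvate dehydrogenase kinase like Pdk1 and Pdk3, gave 148, 141 and 137 on the wild-type arrays and 98.8, 106 and 94.0 on the mutant arrays, lower on every mutant array. Its log2 difference was -0.45 (SE 0.11), with limma adjusted p = 0.710. Pdk4 was above background on mutant replicate 1 only, at 67.7, and its groups overlapped. Bsg, the chaperone of lactate carriers, gave 2457, 2668 and 2650.3, then 2779, 2810.2 and 2776, higher on every mutant array by a small margin. Of the 25, 1 (Bsg) was higher without overlap and 1 (Pdk2) lower, or 4% each, against 5% and 7.33% of all genes.

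Of 42 symbols of further hypoxia response genes, 36 were measured, 18 higher and 18 lower in mean, a median of -0.00, and 0 passed in limma. Edn1, which encodes the vasoconstrictor endothelin-1, gave 53.8, 41.4 and 10.7 on the wild-type arrays, all under background, then 78.9, 100.4 and 91.8 on the mutant arrays. Igfbp3, a binding protein of insulin-like growth factors, gave 122, 122 and 135, then 159, 165 and 185. Pgf, a relative of Vegfa, was above background on mutant replicates 2 and 3 only, at 87.2 and 70.4. In the other direction Hmox1, haem oxygenase, gave 171 ± 13.2 and 115 ± 29.3 (SD, n = 3), and Vhl, which hands hydroxylated HIF-1α to destruction, gave 399, 421 and 372, then 369, 309 and 291, both lower on every mutant array. Limma adjusted p was 0.833 for each of these 5 genes. In all, 3 of the 36 (Edn1, Igfbp3 and Cul2) were higher without overlap and 4 (Vhl, Hmox1, Plod2 and Angptl4) lower, or 8.33% and 11.1%, against 5% and 7.33% of all genes. The groups of Pgf overlapped.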

How the data were processed

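The deposited table holds intensity values for each probe set, linear as judged from their range. On each array the mean of all 22690 intensities, with the outer ends trimmed, was 500.0, so the authors had scaled them. Per the submitters' processing notes the tool was affy. Its version, algorithm and background correction are unstated in the labels. The 64 control probe sets were left out, and 22626 were tested as log2(intensity + 16) with limma 3.58.1 in R 4.3.3 (2-sided, 6 arrays, genotype only). Adjustment was by Benjamini-Hochberg over these probe sets, with a threshold of 0.05. The step was tested on simulated data. Gene symbols came from the platform annotation, updated by Entrez identifier through RefSeq genes of GRCm38.p6. The brightest probe set by mean log2 stood for a gene. All members could be named, with every array written out for those at the steps described, and for a member probe set with an unadjusted p under 0.05 or groups that did not overlap. Members and lists were chosen with earlier results of these data known. Lists are described by counts and medians, with no test. The 3 pools per group limit the precision, and the median SE of a log2 difference was 0.16. An exact permutation test of 3 against 3 arrays cannot go below 0.1, so none is given.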

Additional observations from a re-analysis of the deposited data

How the results depend on the processing

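No probe set of the 34 genes passed the threshold in any of 17 alternative fits, where the lowest adjusted p of a member probe set ran from 0.387 to 1.00. Over all probe sets, 0 passed with the settings of the report, and 4 with array weights, 4 with arrays centred on their medians, 3 with quantile normalization, 3 with eBayes trend and robust settings and 2 without the dimmest 33.3%, none of them a member; the cause was not tested. The median of the glycolysis genes ran from 0.038 to 0.13 when each array was left out, highest without mutant replicate 1. That of the hypoxia response genes ran from 0.017 without wild-type replicate 3 to 0.11 without mutant replicate 2 and 0.13 without wild-type replicate 2. It was lowest, at 0.0065, without the dimmest 33.3% of probe sets. With the 18S covariate it was 0.10, and without wild-type replicates 2 and 3, an alternative chosen after seeing the data, 0.11; the cause was not tested. The sample titles number the arrays alike in both groups and add codes that match between them, whose meaning is not stated. Same-numbered arrays of the groups deviated together only at correlations of -0.02 to 0.05, which with 3 arrays per group cannot exclude a pairing. The numbers were not taken to pair them in the main fit. With the replicate block 0 probe sets passed and the medians were 0.042 and 0.037. The sign of the difference was kept in all alternatives by 20 members, 16 higher and 4 lower, and changed in 1 or more by 14. Probe sets near the background of 61.5 carry little information on fold.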
